A study of Mus musculus with 6 samples.

Results

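Retinoic acid receptors (RARs) and retinoid X receptors (RXRs) are the nuclear receptors through which retinoic acid acts on genes. The family has 6 genes in the mouse, Rara, Rarb, Rarg, Rxra, Rxrb and Rxrg, which were taken by symbol and Ensembl ID from a table of 22274 genes. All 6 were found, and 4 of them had enough counts to be tested. Messenger RNA was sequenced from whole testes labelled day 9 (the labels name no event from which days run). The 3 Dcaf2 cKO libraries came from mice with floxed Dcaf2 and the Stra8-Cre transgene, and the 3 control libraries came from mice whose alleles the labels do not give beyond the word control. Stra8-Cre is a Cre recombinase driven by a promoter active in spermatogonia, so the deletion (conditional knockout, cKO) is directed at germ cells, while whole testis RNA also holds that of Sertoli, Leydig, myoid and other somatic cells. Dcaf2 encodes the substrate receptor of a CRL4 ubiquitin ligase. The comparison addressed whether spermatogenesis depends on DCAF2.

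A RAR binds DNA as a heterodimer with an RXR, at direct repeats of a short core hexamer. Without ligand the dimer holds corepressors, and with retinoic acid it exchanges them for coactivators. In the mouse testis retinoic acid starts the differentiation of spermatogonia and induces Stra8, which is needed for meiosis. RARA is known from Sertoli cells and germ cells, RARG from spermatogonia, and RXRB from Sertoli cells. Male mice that lack RXRB are sterile. RXRs also serve as partners of other nuclear receptors, such as the thyroid hormone, vitamin D and PPAR receptors.

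Promoter windows from RefSeq (build GRCm38.p6, from 250 bases before to 50 bases after a transcript start) were found for all 6 genes, 13 windows in all. They were searched on both strands for the hexamer AGGTCA and its variants (first AGTTCA, then GGGTCA, then GGTTCA), and for direct repeats of any of these hexamers with a spacing of 1, 2 or 5 bases. The hexamers alone stood in 7 of the 13 windows, against 43.7% of 32851 windows of all genes. A direct repeat stood in 1 member's window, that of Rarb, with the spacing of 5 bases, which 0.0974% of all windows hold. The Rarb window is shown because it holds this repeat, a textbook retinoic acid response element, while both Rarg windows are shown because Rarg was the member that fell and has different transcript starts. Capitals mark the hexamers on either strand, and each sequence runs 5′ to 3′ along its gene, here the minus strand of the chromosome in every case.

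Rarb, chr14:16575427-16575726: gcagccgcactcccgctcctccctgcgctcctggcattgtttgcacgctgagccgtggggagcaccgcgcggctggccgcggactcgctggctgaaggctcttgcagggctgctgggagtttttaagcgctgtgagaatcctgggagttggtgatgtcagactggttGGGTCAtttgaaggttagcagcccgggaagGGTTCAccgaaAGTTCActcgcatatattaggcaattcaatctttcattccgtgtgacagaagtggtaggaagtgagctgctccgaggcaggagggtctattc

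Rarg upstream start, chr15:102257473-102257772: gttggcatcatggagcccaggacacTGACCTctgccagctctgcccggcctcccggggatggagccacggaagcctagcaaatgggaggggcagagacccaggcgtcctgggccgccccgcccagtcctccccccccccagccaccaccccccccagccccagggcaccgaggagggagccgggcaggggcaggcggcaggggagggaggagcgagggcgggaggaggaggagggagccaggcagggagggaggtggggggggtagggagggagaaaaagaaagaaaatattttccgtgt

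Rarg downstream start, chr15:102246451-102246750: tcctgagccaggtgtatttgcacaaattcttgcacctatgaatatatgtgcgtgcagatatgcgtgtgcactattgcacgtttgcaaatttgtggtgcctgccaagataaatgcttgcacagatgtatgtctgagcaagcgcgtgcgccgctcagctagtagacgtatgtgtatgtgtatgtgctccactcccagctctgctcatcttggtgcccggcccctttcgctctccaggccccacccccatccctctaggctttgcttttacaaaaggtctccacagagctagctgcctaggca

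The Rarb repeat lay from base -53 to base -37 before the start. The window of Cyp26a1, which encodes a retinoic acid hydroxylase, held a like repeat with the same spacing on the opposite strand. Of the Rarg windows, the upstream one held 1 hexamer and the downstream one 0. The repeats are set out here with only the hexamers in capitals.
Rarb repeat: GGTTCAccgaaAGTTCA
Cyp26a1 repeat: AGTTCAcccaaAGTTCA

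Library totals ran from 15407007 to 17564942 counts in the cKO libraries and from 16097362 to 18372964 in the controls. The targeted gene, listed as Dtl, had 41.7 to 51.5 CPM (counts scaled to library size) in cKO testes and 42.6 to 77.4 CPM in controls (edgeR adjusted p = 0.281), a loose check, since whole-gene counts include transcripts of somatic cells and those that lack the deleted part. Ddx4, Sox9 and Cyp17a1, defining markers of germ, Sertoli and Leydig cells, were detected in every library, while Adam7, a marker of the epididymis, was at 0 in all. Adam7 was the only gene at 0 among 7 rete testis and epididymis markers. These markers summed to 23.6 to 32.6 CPM in cKO testes against 10.9 to 24.7 CPM in controls. Of 5 tested, 0 passed (edgeR), with a median log2 fold change of 0.58. Of the germ-cell markers, 18 of 19 tested pan-germ-cell markers fell (edgeR), against 13.9% of all tested genes. The median of the 19 was -1.58 on the log2 scale. Their summed level was 689 to 880 CPM in cKO testes against 1811 to 2598 CPM in controls. Of 15 Sertoli cell markers, 7 rose, against 11.1% of all tested genes, and 1 fell, against 13.9%. These markers had a median of 0.44 and a sum of 6607 to 7355 CPM in cKO testes against 4935 to 6777 CPM in controls. In whole testes, fewer cells of a type and less RNA per cell cannot be told apart.

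Among the receptors, Rarg fell and Rara rose in the cKO testes, Rxra and Rxrb did not pass the test, and Rarb and Rxrg were near the limit of detection in both groups. Of 4 tested members, 2 passed the test (edgeR, adjusted p under 0.05), against 25.0% of all 14424 tested genes: 1 rose, against 11.1%, and 1 fell, against 13.9%. The groups did not overlap for 3 of the 4, against 44.6% of all tested genes: 1 was higher (22.5% of all) and 2 were lower (22.1% of all).

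Rarg (ENSMUSG00000001288), the receptor known from spermatogonia, was at 12.9, 12.6 and 14.9 CPM in cKO testes 1, 2 and 3, against 24.2, 33.1 and 36.2 CPM in controls 1, 2 and 3. All 3 cKO libraries lay below all 3 controls, and control 1 was the lowest control. The means were 13.5 ± 1.22 CPM in cKO testes and 31.2 ± 6.23 CPM in controls (SD, n = 3 each). The cKO level was 0.433 of the control level, which is -1.21 on the log2 scale (95% interval -1.58 to -0.84, SE 0.164, edgeR adjusted p = 0.00203). The call held with each library left out, at -1.39 to -1.09 (edgeR adjusted p of 2.2e-05 to 0.0172). Germ-cell genes fell beside it: Ddx4, which encodes the germ-line helicase VASA, was at 79.2 ± 10.3 CPM in cKO testes and 196 ± 26.8 CPM in controls (log2 fold change -1.31), and Kit, the receptor of differentiating spermatogonia, was at 51.5 ± 7.28 CPM in cKO testes and 134 ± 43.5 CPM in controls (log2 fold change -1.38). Undifferentiated spermatogonia markers were less uniform: of 15 tested, 7 fell (edgeR), 1 rose and 7 did not pass, with a median of -0.78. Over all tested genes, 13.9% fell and 11.1% rose. With libraries scaled by the pan-germ-cell markers, which moved the all-gene median up by 1.603, the value for Rarg turned to 0.42 (edgeR adjusted p = 0.0511), which lay 1.22 below the median of all genes. With libraries scaled by the Sertoli cell markers it was -1.67 (adjusted p = 0.00136). Over its alternatives the adjusted p of Rarg ran from 5.77e-09 (DESeq2) to 0.0511. The part of germ-cell number in this difference was not tested. The pan-germ-cell list shares genes with the undifferentiated spermatogonia list, such as Nanos2 and Nanos3, so scaling by it is not scaling per germ cell.

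Rara (ENSMUSG00000037992), the receptor of Sertoli cells and germ cells, was at 138, 129 and 124 CPM in cKO testes, against 113, 86.2 and 105 CPM in controls. The groups did not overlap, and control 1 was the highest control. The means were 130 ± 6.797 CPM in cKO testes and 101 ± 13.7 CPM in controls. Rara was 1.28-fold higher, or 0.36 on the log2 scale (95% interval 0.10 to 0.62, SE 0.115, edgeR adjusted p = 0.0489). This call stood close to the threshold. It was lost without control 2 (0.25, edgeR adjusted p = 0.0800), control 3 (0.39, 0.111) or cKO library 1 (0.32, 0.168), 2 (0.37, 0.135) or 3 (0.39, 0.103), and with RLE, upper-quartile or total-count scaling or no filter. It passed without control 1 (0.42, adjusted p = 0.00911), with DESeq2 (0.34, 0.0335) and with limma-voom (0.37, 0.0455). Sox9, the Sertoli cell fate gene, moved the same way, at 222 ± 6.98 CPM in cKO testes and 163 ± 25.04 CPM in controls (log2 fold change 0.44, edgeR adjusted p = 0.0280). With libraries scaled by the Sertoli cell markers, which moved the median of all genes by -0.43, Rara turned to -0.066 (adjusted p = 0.732). With libraries scaled by the pan-germ-cell markers it was 1.96 (adjusted p = 5.79e-08), which lay 0.32 above the median of all genes. The part of the mix of cell types in the Rara difference was not tested.

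Rarb (ENSMUSG00000017491), itself a classic target of retinoic acid through the repeat shown above, had 6, 5 and 6 counts in cKO testes and 2, 10 and 8 counts in controls. The groups overlapped, and these counts were below the filter for testing. The summed counts were 17 in cKO testes (95% exact Poisson interval 9.90 to 27.2) and 20 in controls (12.2 to 30.9), where the intervals cover counting error only. No difference was detectable at this depth. In the reference annotation, exons of Rarb overlap those of Top2b, a topoisomerase gene on the other strand that had 244 ± 6.34 CPM in cKO testes and 179 ± 29.0 CPM in controls. Whether reads were counted by strand is unknown here, and the few counts of Rarb are therefore uncertain.

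**Figure D1:**
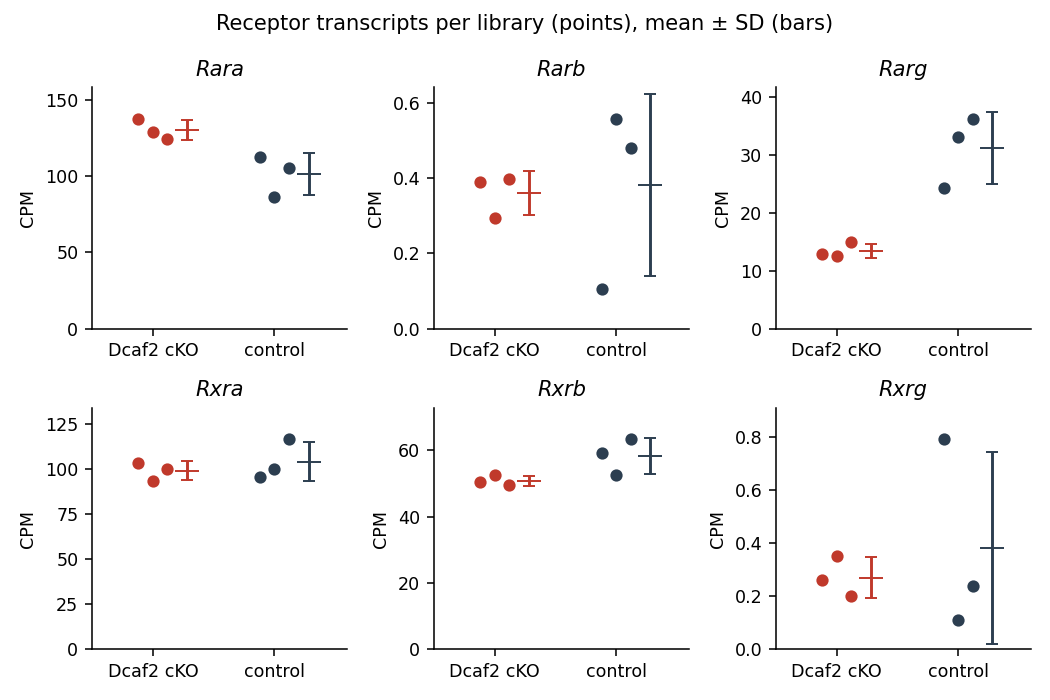
CPM of the 6 receptor genes in each library (points), with the mean and SD of each group (bars); cKO testes are red and controls dark, and every axis starts at 0. The Rarg points of the cKO testes lie between 12.6 and 14.9 CPM, below all controls, while the Rarb and Rxrg axes end below 1 CPM.

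Of the RXRs, Rxra (ENSMUSG00000015846), the widely expressed member, was at 103, 93.2 and 100 CPM in cKO testes and at 95.7, 100 and 116 CPM in controls. The groups overlapped, and the means were 98.9 ± 5.22 CPM in cKO testes and 104 ± 11.0 CPM in controls. The log2 fold change was -0.07 (SE 0.104, 95% interval -0.31 to 0.16, edgeR adjusted p = 0.642), and its sign depended on control 3, without which it was 0.016. The interval leaves out a change as large as that of Rarg.

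Rxrb (ENSMUSG00000039656), the member known from Sertoli cells, was at 50.6, 52.5 and 49.6 CPM in cKO testes and at 59.1, 52.6 and 63.4 CPM in controls. Control 2 stood just above the highest cKO library, so that the groups did not overlap but came close. The means were 50.9 ± 1.49 CPM in cKO testes and 58.3 ± 5.43 CPM in controls, and the log2 fold change of -0.20 did not pass the test (SE 0.0979, 95% interval -0.42 to 0.02, edgeR adjusted p = 0.168). With libraries scaled by the Sertoli cell markers, Rxrb was at -0.63 (edgeR adjusted p = 0.00819) and Rxra at -0.52 (adjusted p = 0.0395), beside -0.40 for the median gene.

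Rxrg (ENSMUSG00000015843), the third RXR, had 4, 6 and 3 counts in cKO testes and 15, 2 and 4 counts in controls. Control 1 stood apart with 15 counts, and the other 5 libraries had 2 to 6. The sums were 13 in cKO testes (95% exact Poisson interval 6.92 to 22.2) and 21 in controls (13.0 to 32.1). The log2 ratio of the mean CPM was -0.49 with all libraries and 0.62 without control 1, so that the data give no direction for Rxrg.

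**Figure D2:**
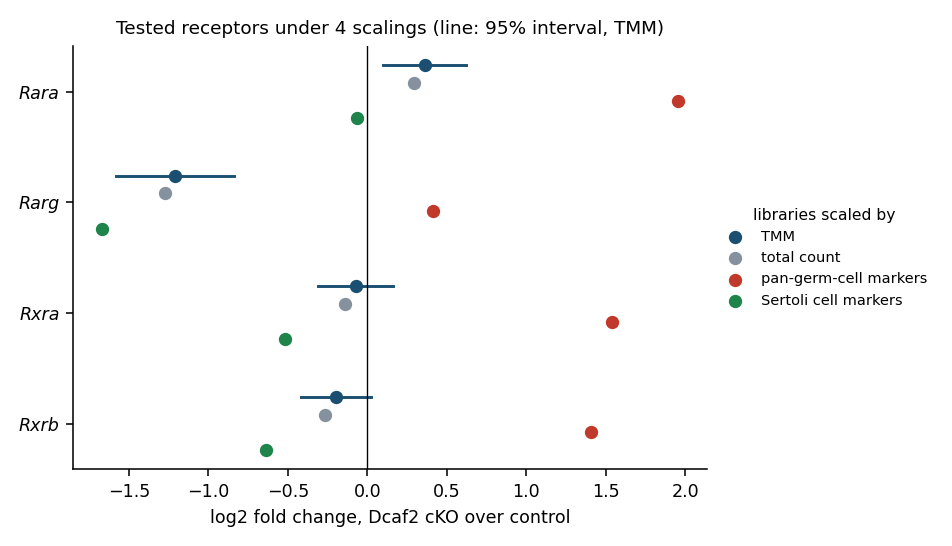
Log2 fold change, cKO over control, of the 4 tested receptors with libraries scaled by TMM, by total count, by the pan-germ-cell markers or by the Sertoli cell markers; the line is the 95% interval of the TMM fit. Rarg lies lowest of the 4 in every scaling, and changes sign with the pan-germ-cell markers (0.42), while Rara changes sign with the Sertoli cell markers (-0.066).

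The balance between Rara and Rarg was compared as a ratio within each library, a measure that does not depend on how libraries are scaled to each other. The log2 ratio of Rara counts to Rarg counts was 3.41, 3.35 and 3.06 in cKO testes, against 2.22, 1.38 and 1.54 in controls. All cKO libraries lay above all controls. The difference of the means (3.27 ± 0.186 in cKO testes, 1.71 ± 0.445 in controls) was 1.56, a 2.95-fold higher ratio, with a two-sided exact permutation p = 0.1, the smallest that 3 against 3 libraries can give (0.2 adjusted over the 2 ratios tested). The log2 ratio of Rxra counts to Rxrb counts was 1.03, 0.83 and 1.01 in cKO testes and 0.69, 0.93 and 0.88 in controls. Its groups overlapped, and the difference of 0.12 had an exact permutation p = 0.3 (0.3 adjusted). The part of the mix of cell types in these ratios was not tested.

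Levels were compared between receptors by the deposited FPKM, which are scaled to transcript length. Rara was the most abundant receptor in every library, at 47.0 ± 3.17 FPKM in cKO testes and 37.9 ± 5.06 FPKM in controls. Rxrb and Rxra followed, at 20.4 ± 0.545 and 19.7 ± 1.19 FPKM in cKO testes and at 24.5 ± 2.70 and 22.3 ± 2.21 FPKM in controls, and these neighbours overlapped in both groups. Rarg came next, at 5.25 ± 0.694 FPKM in cKO testes and 11.3 ± 2.04 FPKM in controls, below the RXRs in every library. Rarb and Rxrg were under 0.5 FPKM in all libraries and overlapped each other. Of the summed FPKM of the 3 RARs, Rarg held 8.52%, 9.84% and 11.85% in cKO testes, against 17.8%, 26.9% and 24.4% in controls. The summed FPKM of the RXRs was 0.744, 0.779 and 0.785 of that of the RARs in cKO testes, against 0.897, 0.986 and 0.966 in controls. Neither the Rarg share nor this ratio overlapped between the groups. They are given without a test, and the part of the mix of cell types in them was not tested either.

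**Figure D3:**
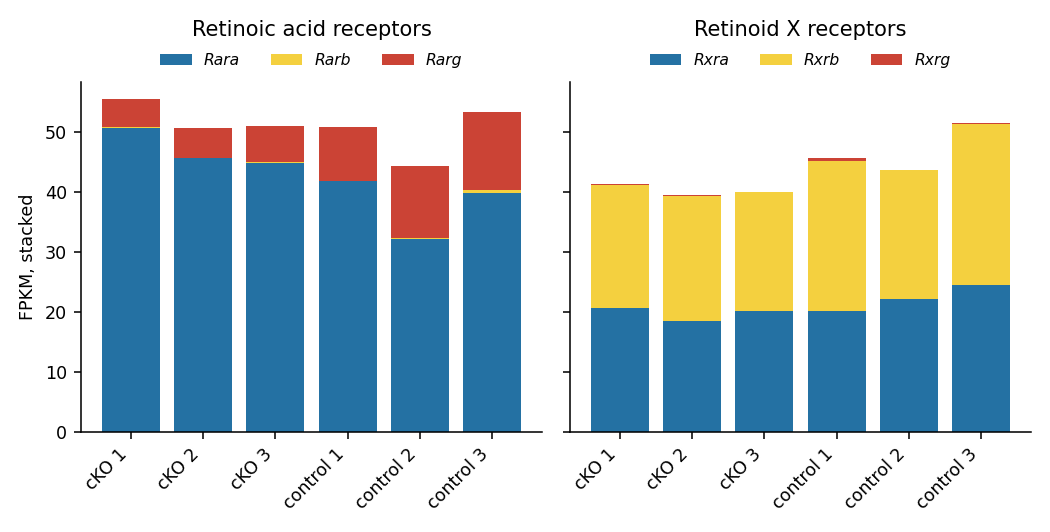
FPKM of the 3 RARs (left) and the 3 RXRs (right), stacked, in each library, cKO testes before controls. Rara makes up most of the RAR bar everywhere, and the Rarg segment is 4.73 to 6.04 FPKM in cKO testes against 9.06 to 13.0 FPKM in controls.

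If the same tool gave both values, the count behind 1 FPKM of a gene follows the transcript length used for it in that library. The sources used here do not say whether the same tool gave both. Set to the median gene of each library and to the mean of the controls, this count per FPKM of Rarg was 95.8%, 87.5% and 85.8% in cKO testes, against 97.65%, 99.8% and 103% in controls. The cKO libraries lay below the controls, with cKO library 1 close to control 1. The means were 89.7% ± 5.35 in cKO testes and 100% ± 2.44 in controls (two-sided exact permutation p = 0.1, the smallest possible). Of 11608 genes with at least 1 FPKM and 50 counts in every library, 3.86% had cKO libraries that all lay below the controls, and 2.34% were at or below the Rarg value. Rara, Rxra and Rxrb overlapped between the groups, with cKO means of 98.9%, 102% and 99.8%. Which transcripts of Rarg were counted is not analysed here, so a link between this measure and the different starts shown above was not tested. The measure was chosen after the values of Rarg had been seen.

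**Figure D4:**
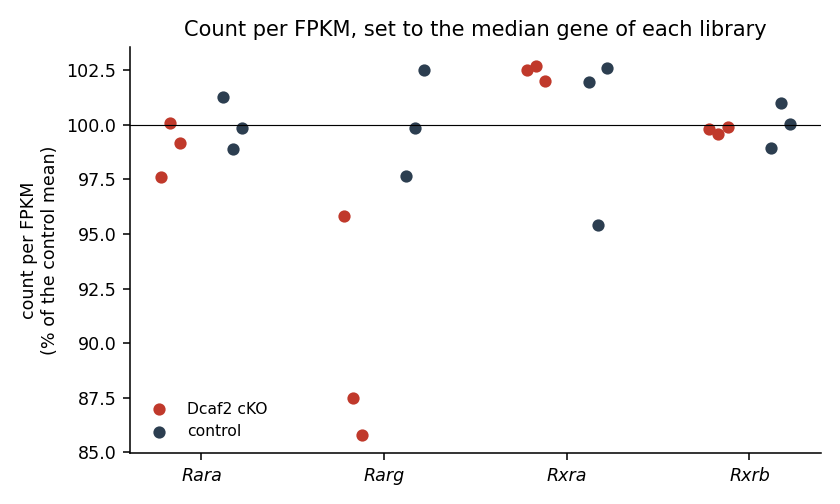
Count per FPKM of the 4 tested receptors in each library, as a percentage of the control mean, after setting it to the median gene of the library; the vertical axis does not start at 0. The Rarg points of cKO testes 2 and 3 (87.5% and 85.8%) lie apart from all others.

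For each tested receptor the genes most like it across the 6 libraries were taken by Pearson's r of log2 CPM, out of 9175 genes whose mean log2 CPM was 4 or more. For Rarg these were Crot, a peroxisomal acyltransferase gene (r = 0.998), and Ercc3, a DNA helicase gene of transcription factor TFIIH (r = 0.998). For Rara they were Dcn, the proteoglycan decorin (r = 0.997), and Qsox1, a sulfhydryl oxidase gene (r = 0.995). Dcn itself did not pass the test (edgeR adjusted p = 0.0574). It is also in the list of interstitial stroma markers, of which 5 of 9 rose, against 11.1% of all tested genes. For Rxrb they were the kinase genes Stk25 (r = 0.993) and Bckdk (r = 0.980), and for Rxra they were Ret, the GDNF receptor kinase (r = 0.962), and Slc6a9, a glycine transporter gene (r = 0.960). Likeness does not mean an equal change: the log2 fold change of Ercc3 was -0.63 and that of Crot -0.29, against -1.21 for Rarg. With 6 libraries that share a genotype split, such values describe the libraries only.

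Of the nuclear receptors that pair with RXR, Thra, Thrb and Vdr rose and 8 others did not pass the test. The list has 13 such partners, of which 11 were tested. Of these, 3 rose, against 11.1% of all tested genes, and 0 fell, against 13.9% (edgeR, also 3 and 0 with DESeq2 or limma-voom). At an unadjusted p under 0.05, 5 partners were higher and 0 lower, beside 5636 of all 14424 tested genes in either direction. The median log2 fold change of the tested partners was 0.46, against 0.03 for all tested genes. Pparg (-0.52), Nr1h2 (-0.21) and Nr1h3 (-0.14), the tested partners with negative values, were named after their values were seen. Among marker lists of other cells, medians were 0.44 for Sertoli cells, 0.43 for interstitial stroma, 0.45 for macrophages and 0.45 for endothelial cells. They were 0.81 for Leydig cells, 0.58 for rete testis and epididymis, 0.26 for peritubular myoid cells and -0.21 for erythroid cells. Their part in the level of the partners was not tested. Thra, the thyroid hormone receptor alpha gene, was at 375, 370 and 356 CPM in cKO testes, against 284, 237 and 243.5 CPM in controls, and rose 1.44-fold (0.53 on the log2 scale, SE 0.0995, edgeR adjusted p = 0.00702). Thrb, its paralog, rose 1.58-fold to 12.8 ± 1.66 CPM in cKO testes, against 8.08 ± 1.22 CPM in controls (adjusted p = 0.0221), and Vdr, the vitamin D receptor gene, rose 1.46-fold to 62.4 ± 9.25 CPM, against 42.8 ± 9.03 CPM in controls (adjusted p = 0.0413). The count was 1 without control 3 or any 1 cKO library, where 1355 to 1933 of all genes passed. Without control 2, 4 partners were higher and 1 was lower, beside 1998 higher and 2279 lower of all 14544 tested genes. Under scaling by the Sertoli cell markers 0 partners were higher and 1 was lower, where 41 of all 14424 genes were higher and 6076 lower, and the calls of Thra, Thrb and Vdr were lost. With the pan-germ-cell markers all 11 were higher, as were 13558 of all genes, so neither count sets the partners apart.

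Of the coregulators of the receptors, Carm1 rose and Prmt1 fell, both among the coactivators. Of 10 corepressor genes tested, 0 rose and 0 fell, against 25.0% of all tested genes that passed (edgeR). The median of the 10 was 0.02. With DESeq2 1 was lower and with limma-voom 0 passed, beside 3987 and 3598 of all 14424 tested genes. At an unadjusted p under 0.05, 4 corepressor genes were higher and 1 was lower, beside 5636 of all tested genes in either direction. Nrip1, a corepressor that binds receptors carrying ligand, had the smallest p, at 110 ± 4.40 CPM in cKO testes and 78.8 ± 21.7 CPM in controls (log2 fold change 0.48, edgeR adjusted p = 0.0734). Tbl1x, a gene of a corepressor complex subunit, was at 262 ± 1.96 CPM in cKO testes and 213 ± 34.8 CPM in controls (log2 fold change 0.30, edgeR adjusted p = 0.104). Without control 2 there were 4 higher corepressor genes and 1 lower, beside 1998 higher and 2279 lower of all 14544 tested genes. Without control 1 there were 2 lower, beside 2392 higher and 2863 lower of all 14554. Of 10 coactivator genes tested, 1 rose, against 11.1% of all tested genes, and 1 fell, against 13.9%, with a median of 0.09. Carm1, an arginine methyltransferase gene, rose by 0.31 on the log2 scale (edgeR adjusted p = 0.0430), and Prmt1, another such gene, fell by 0.41 (adjusted p = 0.0291). Ncoa2, a p160 coactivator gene, was at 0.45 (adjusted p = 0.0705). Both coactivator calls were lost without control 3 or any 1 cKO library, where the count was 0 and 1355 to 1933 of all genes passed. Without control 1 or control 2, 3 coactivator genes passed, beside 5255 and 4277 of all genes. The Carm1 call was also lost with RLE, upper-quartile or total-count scaling and with no filter. Under scaling by the pan-germ-cell markers all 10 corepressor and all 10 coactivator genes were higher, and with the Sertoli cell markers 5 corepressor and 2 coactivator genes were lower, scalings that moved most or many of all genes the same way.

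Among the genes that make, carry and break down the ligand, the binding protein genes Crabp1 and Rbp4 fell the farthest. Of 11 tested genes of retinoid synthesis and storage, 1 fell and 0 rose (edgeR, also 0 higher with DESeq2 or limma-voom). The 1 that fell was Dgat1, an acyltransferase gene of lipid storage (log2 fold change -0.49, edgeR adjusted p = 0.0260). Over all tested genes, 13.9% fell and 11.1% rose. At an unadjusted p under 0.05, 1 of the 11 was higher and 2 were lower, beside 5636 of all 14424 tested genes in either direction. The median of the synthesis and storage genes was 0.22. Aldh1a2, a retinoic acid synthesis gene, was at 46.6 ± 6.96 CPM in cKO testes and 57.6 ± 4.65 CPM in controls (adjusted p = 0.0974), and Rdh11, a retinal reductase gene, differed by 0.23 (adjusted p = 0.118). The count of this list was 0 without control 3 or any 1 cKO library, where 1355 to 1933 of all genes passed. It was 7 of 12 tested (5 higher, 2 lower) without control 1, where 5255 of all 14554 tested genes passed. Of 6 tested uptake and binding genes, 1 rose, against 11.1% of all tested genes, and 2 fell, against 13.9%, with a median of -0.57. Crabp1, a cellular retinoic acid binding protein gene, was at 6.89, 4.70 and 9.70 CPM in cKO testes, against 41.3, 37.6 and 46.9 CPM in controls, far below them (log2 fold change -2.57, SE 0.225, edgeR adjusted p = 0.000303). Rbp4, the retinol carrier of serum, was at 2.66 ± 0.311 CPM in cKO testes and 10.3 ± 0.684 CPM in controls (log2 fold change -1.94, adjusted p = 0.000375), and Stra6, a retinol uptake receptor gene, rose by 0.35 (adjusted p = 0.0304). The Stra6 call was lost without control 3 or any 1 cKO library, and with upper-quartile (edgeR adjusted p = 0.0520) or total-count scaling (0.0659). When the pan-germ-cell markers set the scale, Crabp1 was at -0.99 (edgeR adjusted p = 0.000499), while the Rbp4 call was lost (-0.33, 0.253). Of the Cyp26 hydroxylases, which break down retinoic acid, Cyp26b1 rose 1.52-fold, with 331, 308 and 254 CPM in cKO testes, against 185, 204 and 200 CPM in controls (edgeR adjusted p = 0.00714). The Cyp26b1 call was lost with libraries scaled by the Sertoli cell markers (0.16 on the log2 scale, adjusted p = 0.481). Cyp26a1, whose repeat is shown above, was at 1.57 ± 0.317 CPM in cKO testes and 1.87 ± 0.895 CPM in controls (adjusted p = 0.650).

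Retinoic acid responsive genes were mixed. Of 17 tested, 5 rose, against 11.1% of all tested genes, and 4 fell, against 13.9%, with a median of 0.23. Stra8, the gene induced before meiosis, was at 11.3, 8.16 and 16.7 CPM in cKO testes, against 70.3, 59.7 and 54.3 CPM in controls, with no overlap (log2 fold change -2.35, SE 0.226, edgeR adjusted p = 0.000453). Kit fell too (-1.38, adjusted p = 0.00444), while Ccnd2, a D-type cyclin gene, rose 1.71-fold to 523 ± 18.7 CPM in cKO testes, against 307 ± 38.1 CPM in controls (adjusted p = 0.00251). The Ccnd2 call was lost with libraries scaled by the Sertoli cell markers (0.32, adjusted p = 0.189). Stra8, Kit, Ccnd2 and the Crabp1 of the binding list are also in the list of differentiating spermatogonia markers. Of these 11 markers 10 fell, against 13.9% of all tested genes, and 1 rose, against 11.1%. Without cKO library 2 there were 2 higher and 3 lower responsive genes of 16 tested, beside 452 higher and 903 lower of all 14584. After scaling by the pan-germ-cell markers 14 were higher and 1 lower, where 13558 of all 14424 genes were higher, with Kit at 0.26 (adjusted p = 0.178) among those that did not pass.

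**Figure D5:**
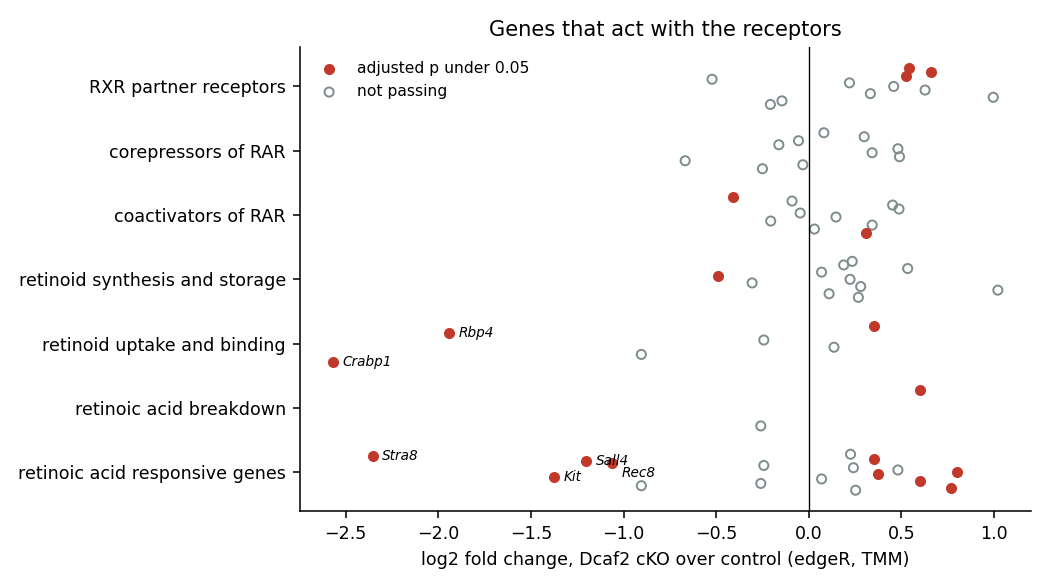
Log2 fold change, cKO over control, of each tested gene in the 7 lists of genes that act with the receptors; filled points passed the test and open points did not, and genes can stand in more than 1 list. Crabp1 (-2.57), Stra8 (-2.35) and Rbp4 (-1.94) lie farthest to the left, and the 3 filled points of the RXR partners lie to the right.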

How the data were processed

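RNA was sequenced from 6 mouse testis libraries. The counts and FPKM values that the authors deposited stand in 1 table. StringTie 1.3.1 and RSEM appear in the submitters' processing notes with no role named. Aligner, build, annotation and strand setting: not given in the sources used here. The deposited counts are whole and were read as rounded estimated counts, which is an assumption. In each library 3 to 21 genes with an FPKM above 0 have a count of 0, which does not settle how the counts were made. The counts were used as deposited. The FPKM values, which the authors scaled to transcript length and library size, served for levels between genes and for the count per FPKM.

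A symbol was found for 22219 of 22274 IDs. The filterByExpr function (minimum count 10) of edgeR 4.0.16 left 14424 genes. Libraries were scaled by TMM, and cKO was set against control by edgeR's quasi-likelihood test (R 4.3.3) and Benjamini-Hochberg adjustment over all tested genes at a threshold of 0.05. The SE is the log2 fold change over the square root of F. The test was run on simulated counts with few changed genes and the same spread in both groups. These data differ in both respects, so that run does not give the error rate here. Count ratios used a pseudocount of 0.5 and a two-sided exact permutation test. Likeness used log2 CPM with a prior count of 2. The alternatives included DESeq2 1.42.0 and limma 3.58.1 (voom).

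The members and gene lists were chosen with earlier results of these data known. Named genes were the 6 members, up to 3 other genes of each of 7 lists with the smallest p, and the 2 genes most like each tested member; a few marker genes stand beside the members' values. A gene that this rule takes is not reported here. The labels number the samples but do not say whether they are separate animals, so the spread behind each p-value may be technical in part. No protein sequence was used here.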

Additional observations from a re-analysis of the deposited data

How the results depend on the processing

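Of all genes, 3607 passed. The count was 13627 with scaling by the pan-germ-cell markers (13558 higher, 69 lower), 6117 with the Sertoli cell markers (41 higher, 6076 lower), and 1355 to 5255 with 1 library left out, which also lowers power. With total-count scaling 1109 genes were higher and 2424 lower, against 1599 and 2008. Rara lost its call with RLE (0.34), upper-quartile (0.33) or total-count scaling (0.29), with no filter (0.35) and with the replicate block (0.37), turned to -0.066 with the Sertoli cell markers, and ran from 0.25 to 0.42 with 1 library left out. Rarg turned to 0.42 with the pan-germ-cell markers and kept its call in all other alternatives. Rxra and Rxrb turned to 1.54 and 1.41 with these markers and passed with the Sertoli cell markers (-0.52 and -0.63). With 1 library left out Rxra ran from -0.15 to 0.016 and Rxrg from -0.93 to 0.62. The Rara over Rarg ratio kept its direction throughout, at 1.39 to 1.81 with 1 library left out and 1.42 by FPKM. Of the other named genes, scaling by the pan-germ-cell markers, which put the median of all genes at 1.63, turned Prmt1 (1.18), Dgat1 (1.11), Aldh1a2 (1.31), Cyp26a1 (1.34) and Kit (0.26). Relative to that median these values were -0.45, -0.52, -0.33, -0.29 and -1.37. Scaling moves each gene and the median by nearly the same amount. That these values stay near those with TMM is therefore no separate result. With a median of -0.40, the Sertoli cell markers turned Tbl1x (-0.15), Carm1 (-0.14), Ncoa2 (-0.0020), Rdh11 (-0.19) and Stra6 (-0.07). Cyp26a1 was at 0.16 without control 2 and at -0.53 without control 3. The count of synthesis and storage genes that passed was 3 of 15 with no filter, where 3449 of all 18333 tested genes passed. That of coactivators was 1 with no filter, RLE or upper-quartile scaling, where 3449, 3579 and 3458 of all genes passed. The count per FPKM of Rarg differed by -13.4 to -8.355 percentage points with 1 library left out, an alternative chosen after seeing the data.

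The libraries showed no pairing by replicate number: deviations of same-numbered libraries correlated at -0.072, -0.078 and 0.070, and no library correlated best with its own number. With 3 libraries per group, these values cannot settle whether the numbers mark a shared litter or batch. With the number as a block 2822 genes passed, and Rarg was at -1.19 (edgeR adjusted p = 0.00251). The block ended the calls of Prmt1, Carm1, Dgat1 and Stra6 (edgeR adjusted p of 0.0532, 0.0728, 0.0549 and 0.0643), which left 0 coactivator and 0 synthesis and storage genes, and Nrip1 passed (0.0481). The cause of the changes between settings was not tested. The depth limits Rarb and Rxrg, at 2 to 15 counts per library.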

Other observations

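Control library 1 was the farthest control from every cKO library over all genes, with a chi-square per degree of freedom of 47.01 to 52.9, against 28.7 to 40.55 for controls 2 and 3. Control 1 also stood apart from the other controls, at 46.35 from control 2 and 23.96 from control 3, against 13.97 between controls 2 and 3. The cKO libraries lay closer to each other than any controls did, at 4.02 to 5.793. The edgeR test takes 1 dispersion per gene for both groups, and what this unequal spread does to its p-values was not tested. In a few measures, picked after their values were seen, control 1 was the control nearest to the cKO libraries instead. Its log2 ratio of Rara to Rarg counts was 2.22, against 1.38 and 1.54 in controls 2 and 3 and 3.06 to 3.41 in the cKO testes. Kit was at 84.3 CPM in control 1, against 166 and 151 CPM in controls 2 and 3 and 44.1 to 58.7 CPM in the cKO testes. Cyp17a1, a gene of androgen synthesis in Leydig cells, was at 200 CPM in control 1, against 32.9 and 20.2 CPM in controls 2 and 3 and 193.5 to 258 CPM in the cKO testes. Stra8 did not follow this order, with 70.3 CPM in control 1, the highest of all libraries. Without control 1 the log2 fold changes of Rarg and Rara were -1.39 and 0.42.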
